A study of Mus musculus with 12 samples.

Results

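Genes known for their high level in the projection neurons of the striatum, most of them parts of dopamine signalling, were followed across 12 expression arrays of hippocampus and cortex. All probes with these gene symbols were taken from the probe annotation that both deposited tables share. The symbols were listed with earlier results of these data known: Drd1a (named Drd1 in RefSeq today), Drd2, Gpr6, Adcy5, Ppp1r1b, Pde10a, Pde1b, Rgs9, Tac1 and Pdyn. These 10 genes have 13 probes among the 25697 probes (18097 symbols) of the array, with 3 probes for Ppp1r1b, 2 for Pdyn and 1 for each other gene. The RNA came from male 3×TgAD mice, a transgenic model of Alzheimer's disease that carries mutant human APP and tau transgenes and a mutant presenilin 1 in every group, so that no array is from a non-transgenic mouse. The AMI mice received amitriptyline hydrochloride, a tricyclic antidepressant, at 100 µg per g of body weight in their drinking water for 4 months, from 14 to 18 months of age, and the vehicle mice drank plain water over the same time. Both groups were also injected with BrdU, a label of dividing cells, in the course of the treatment. Each tissue and treatment is represented by 3 arrays, called hippocampal AMI, hippocampal vehicle, cortical AMI and cortical vehicle replicates 1 to 3. Which mouse gave which array is not stated, so p-values measure the spread between these samples. No array is from the striatum.

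In the striatum, dopamine from the midbrain acts on projection neurons through receptors that either raise or lower cyclic AMP. Drd1a couples to its production and Drd2 to its inhibition, Adcy5 makes it, Pde10a and Pde1b break it down, and the level of cyclic AMP sets the phosphorylation of Ppp1r1b (DARPP-32), which in that state inhibits protein phosphatase 1. Rgs9 shortens signalling through G proteins downstream of the receptors, and Tac1 and Pdyn encode the precursors of substance P and the dynorphin opioid peptides, which the neurons that carry Drd1a release. Cortex and hippocampus hold many of these transcripts in smaller sets of neurons, such as deep-layer cortical neurons with DARPP-32 and dentate granule cells with prodynorphin.

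An array of this kind reads each transcript through a probe of 50 bases, so the sequences show which stretch of the transcript each value comes from. The first 30 bases of 8 probes follow, in lower case, because the genes with several probes and those with the largest differences between groups turn on them.
Ppp1r1b ILMN_1253473: aaggcagagtgggggatagacagaagctgg
Ppp1r1b ILMN_2651660: ctaagatctggggaaaggaggtactgagag
Ppp1r1b ILMN_2954824: tcttcccttactctaggcctgaacccctcc
Pdyn ILMN_2767871: gacgccatccttctgaaggctgaagtgata
Pdyn ILMN_2783873: cttgggacatgtgatccttaataggtctgt
Drd2 ILMN_2988228: gcctgggaagttgagccttggaccagtgtt
Rgs9 ILMN_1250689: gccagacaggcatgtgggccagaagatatc
Pde1b ILMN_1224034: cagtgggccctgttcttgtgaagtccatct

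The 3 Ppp1r1b probes start at bases 16, 1281 and 1609 of their transcript in the array annotation, which places them on chromosome 11 at 98210067 to 98210116, 98218724 to 98218773 and 98219052 to 98219101, on the plus strand. The 2 Pdyn probes start at bases 1650 and 2309 of theirs, on chromosome 2 at 129512987 to 129513036 and 129512328 to 129512377, on the minus strand. The Drd2 probe lies on chromosome 9 at 49215993 to 49216042 and the Pde1b probe on chromosome 15 at 103360357 to 103360406, both on the plus strand. The Rgs9 probe has no position in that annotation, only the band 11qE1. The annotation does not name its genome build, so the exon or untranslated region of a probe was not analysed here. Over the whole 50 bases, the G and C content of the 13 probes was between 46% and 68%, the highest for Adcy5.

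The cyclic AMP response element (CRE), TGACGTCA, is the site through which cyclic AMP acts on many promoters, and it was searched on both strands in the 250 bases before the gene starts that RefSeq lists (GRCm38.p6). Among the members 9 of 10 had an entry, with 14 starts in all, and Ppp1r1b had none. The whole element occurs in 1.55% of the 32851 promoters and, among the members, in that of Gpr6, 78 bases before its start at chr10:41072350-41072379 on the minus strand. Its core TGACG, which the whole element holds on both strands, occurs in 17.8% of promoters and, among the members, in those of Gpr6 and Tac1. In the Tac1 promoter it lies on the opposite strand, 197 and 43 bases before the start, at chr6:7554853-7554882 and chr6:7555007-7555036. The 3 stretches are shown with the match in capitals.
Gpr6: aacccagagccTGACGTCAccggaccccgc
Tac1, farther match: ccctaaaattgCGTCAtttcgaacacaatt
Tac1, nearer match: ctctacaggctCGTCAcgcctgagataaat

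The deposited value is the mean bead signal of a probe, a linear intensity without normalization or background subtraction, with a detection p for each array. Between 12588 and 13280 probes per array had a detection p of 0.05 or less. Signals are given below as log2 values that were z-normalized within each array, so that 0 is the mean of the array. Groups are compared for the same probe, and no level of a gene is set against that of another; among the probes of a gene, the one with the highest mean signal stands for it where genes are counted. Cortical projection neuron markers were lower in hippocampus for 5 of 6 tested genes, and dentate and hippocampal neuron markers were higher there for 5 of 6 (adjusted p under 0.05, vehicle arrays). Of all 12430 tested probes, 10% were lower and 1851 were higher there. The exception among the cortical markers was Fezf2, with bead signals of 416 to 817 in hippocampus and 240 to 453 in cortex. Among the hippocampal markers it was Wfs1, with 297 to 1135 and 694 to 1211. Each tissue thus carried most markers of its label. The hippocampus and cortex tables were exported with different programs, so tissue and table cannot be told apart. In bulk tissue, fewer cells of a type and less RNA per cell cannot be told apart either.

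Of the 13 probes, 9 were detected on all 12 arrays: those of Drd1a, Pde1b, Pde10a, Rgs9 and Tac1, both of Pdyn, and Ppp1r1b ILMN_2651660 and ILMN_2954824. Drd2 was detected on 5 of 6 hippocampal and 6 of 6 cortical arrays. Gpr6, a receptor that raises cyclic AMP without a bound ligand, was detected on 0 hippocampal and 4 cortical arrays, and Ppp1r1b ILMN_1253473 on 1 and 5. The probe of Adcy5, the main adenylyl cyclase of the striatum, had bead signals between 54.0 and 86.4 and was not detected on any of the 12 arrays, so no level of Adcy5 is given. For probes detected on at least 3 arrays of each tissue, 12430 in all, tissues were compared with limma, and 10 of the 13 member probes were among them. They stand for 8 genes, since Adcy5, Gpr6 and Ppp1r1b ILMN_1253473 did not pass.

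**Figure D1:**
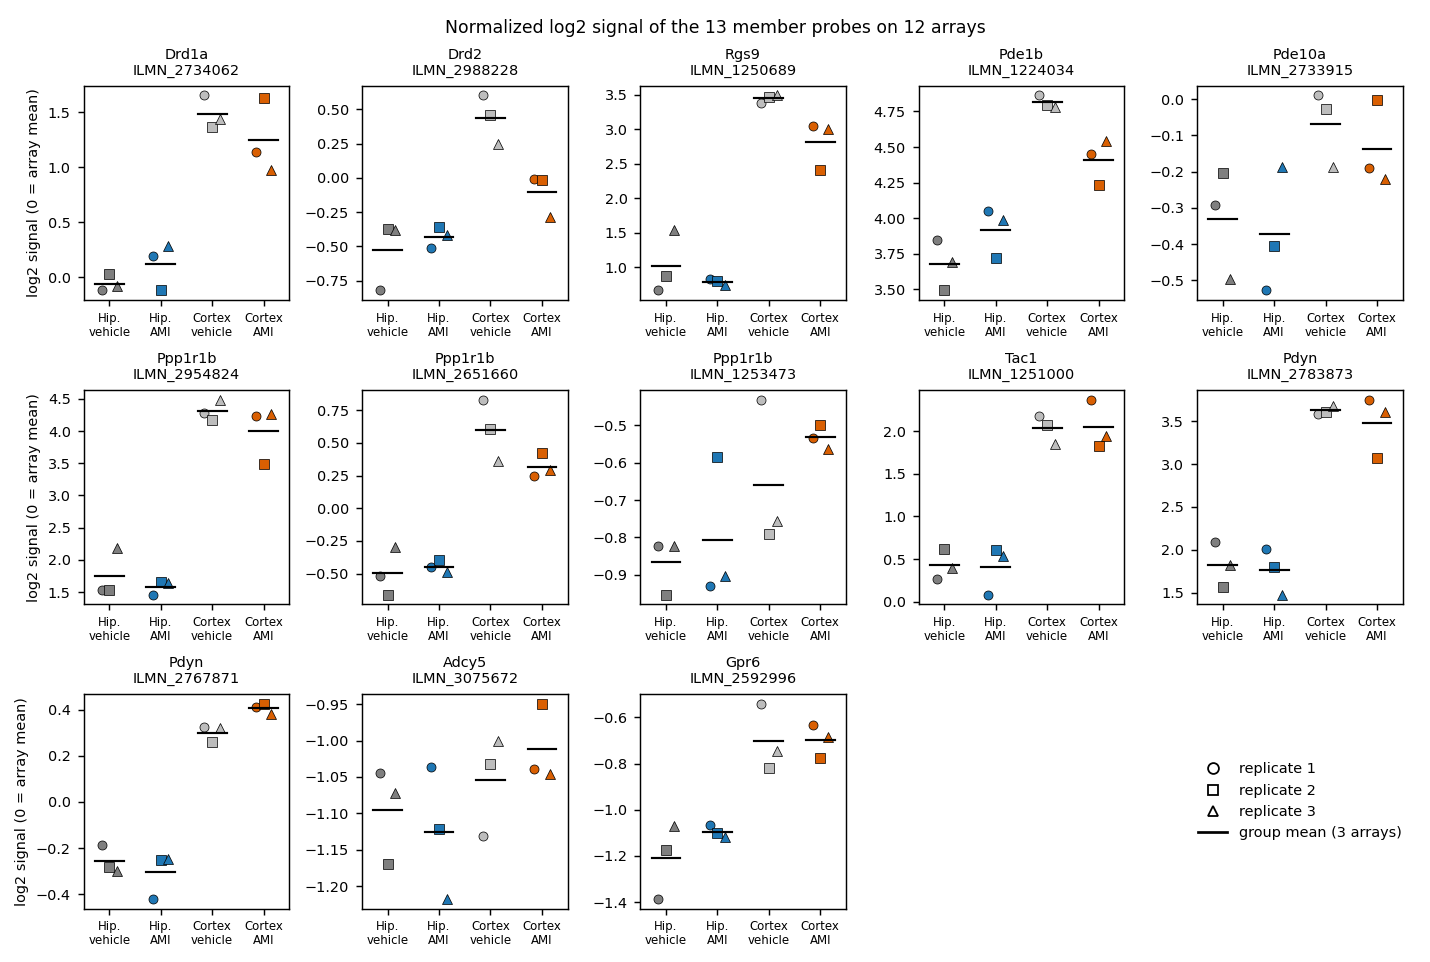
Normalized log2 signal (vertical axis, 0 is the mean of the array) of each member probe on the 12 arrays, by tissue and treatment. Symbols are arrays, with the shape giving the replicate number, and bars are means of 3 arrays; each panel has its own scale. For Rgs9 the 6 cortical arrays lie between 2.41 and 3.49 and the 6 hippocampal arrays between 0.67 and 1.54.

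The genes were read higher in cortex than in hippocampus. In vehicle arrays 9 of the 10 tested probes were lower in hippocampus at an adjusted p under 0.05, where 10% of all tested probes were lower and 24.9% differed in either direction. In AMI arrays 8 of 10 were lower, against 11.5% of all tested probes (26.1% in either direction). The hippocampal and cortical arrays did not overlap for 10 of 10 probes in vehicle mice (16.4% of all tested probes were lower in hippocampus without overlap) and for 9 of 10 in AMI mice (18.8%). The median log2 fold change of the 10 probes, hippocampus minus cortex, was -1.34 in vehicle and -0.95 in AMI arrays, and that of all tested probes 0.03 and 0.02.

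The deposited bead signals, before normalization, were between 276 and 752 in hippocampus and between 1764 and 2428 in cortex for Ppp1r1b ILMN_2954824, and between 182 and 463 and between 811 and 1344 for Rgs9. For Tac1 they were 112 to 271 and 411 to 671, for Pdyn ILMN_2783873 395 to 702 and 1174 to 1648, and for Drd1a 113 to 176 and 234 to 567. These ranges did not overlap between the tissues over all 12 arrays. Drd2, with 70.6 to 125 in hippocampus and 107 to 213 in cortex, and Pde1b, with 1500 to 3274 and 2093 to 3785, overlapped before normalization.

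**Figure D2:**
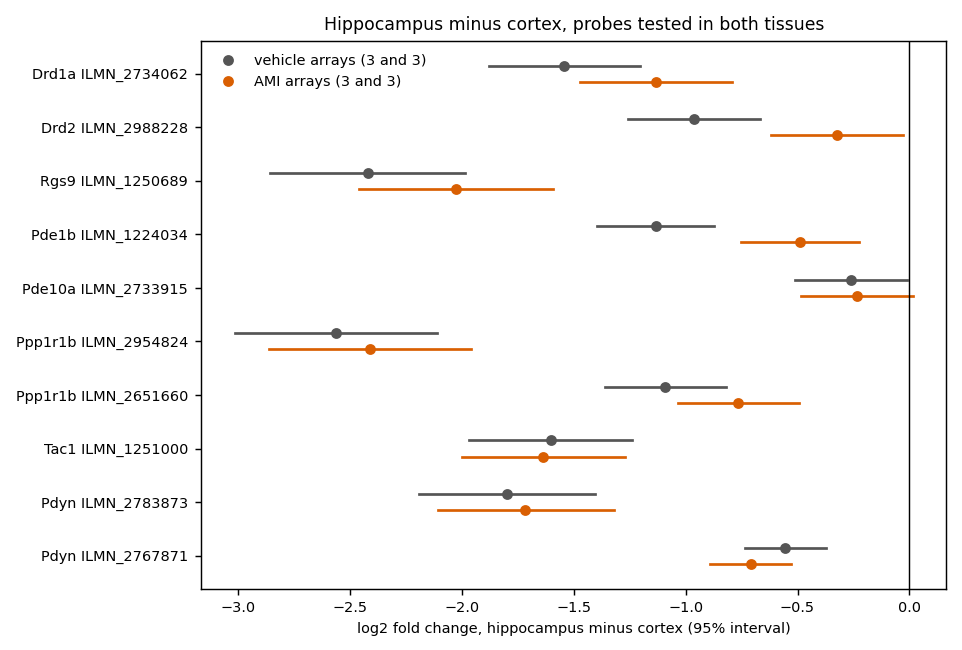
Log2 fold change of hippocampus minus cortex (horizontal axis) for the 10 tested member probes, in vehicle arrays (grey) and AMI arrays (orange), with 95% intervals from limma and 3 arrays per group. All points lie below 0, from -2.56 for Ppp1r1b ILMN_2954824 to -0.24 for Pde10a, and the interval of Pde10a in AMI arrays reaches past 0.

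Ppp1r1b, the phosphatase inhibitor that integrates dopamine and glutamate signals, had, with Rgs9, the largest differences between tissues among the 10 tested probes. Probe ILMN_2954824 read 1.46, 1.66 and 1.64 in hippocampal AMI, 1.54, 1.53 and 2.19 in hippocampal vehicle, 4.23, 3.49 and 4.26 in cortical AMI, and 4.28, 4.18 and 4.49 in cortical vehicle replicates 1 to 3. Every cortical array was above every hippocampal one, hippocampal vehicle replicate 3 was the highest of its tissue, and cortical AMI replicate 2 the lowest of its own. The log2 fold change, hippocampus minus cortex, was -2.56 (SE 0.21, adjusted p = 5.73e-06) in vehicle and -2.41 (SE 0.21, adjusted p = 8.97e-06) in AMI arrays, or 5.91-fold and 5.32-fold higher in cortex. Probe ILMN_2651660, further towards the start of the transcript, gave -1.09 (SE 0.13, adjusted p = 7.83e-05) and -0.76 (SE 0.13, adjusted p = 0.000938). The probe at the start of the transcript, ILMN_1253473, was close to background, with values between -0.95 and -0.59 in hippocampus and between -0.79 and -0.43 in cortex. These ranges overlapped, although within each treatment the tissues did not. The probe was detected on 2 of 3 cortical vehicle arrays. Their group mean was 1.07-fold above the detection limit of the hippocampal vehicle arrays, the average of their lowest detected signals. That rested on cortical vehicle replicate 1 at -0.43, since replicates 2 and 3 read -0.79 and -0.76 and were not above this limit of -0.76. No lower bound of the fold is therefore given. The background signal was not subtracted, so fold changes of dim probes are understated, and the difference in size between probes cannot be read as one between transcripts.

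Rgs9, an RGS protein known from striatum and retina, read 0.83, 0.80 and 0.75 in hippocampal AMI and 0.67, 0.87 and 1.54 in hippocampal vehicle arrays. In cortical AMI arrays it read 3.05, 2.41 and 3.00, and in cortical vehicle arrays 3.38, 3.47 and 3.49. The tissues were far apart, and within the hippocampus vehicle replicate 3 stood above the other 5 arrays, as for Ppp1r1b ILMN_2954824. The log2 fold change was -2.42 (SE 0.20, adjusted p = 5.84e-06) in vehicle and -2.03 (SE 0.20) in AMI arrays, or 5.36-fold and 4.07-fold higher in cortex. With neqc, which corrects for background, Rgs9 gave -2.63 and Ppp1r1b ILMN_2954824 -2.59 in vehicle arrays, so that their order turned, and -2.33 and -2.55 in AMI arrays.

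Among the neuropeptides, Pdyn ILMN_2783873 read 2.01, 1.80 and 1.48 in hippocampal AMI, 2.09, 1.56 and 1.82 in hippocampal vehicle, 3.75, 3.08 and 3.60 in cortical AMI and 3.59, 3.61 and 3.68 in cortical vehicle arrays. Its log2 fold change between tissues was -1.80 (SE 0.18) in vehicle and -1.72 (SE 0.18) in AMI arrays. The other Pdyn probe, ILMN_2767871, gave -0.56 (SE 0.08) and -0.71 (SE 0.08). Both Pdyn probes were thus lower in hippocampus in both treatments, with no overlap between the tissues. Tac1 read 0.08, 0.61 and 0.53 in hippocampal AMI, 0.26, 0.62 and 0.40 in hippocampal vehicle, 2.37, 1.82 and 1.94 in cortical AMI and 2.18, 2.07 and 1.84 in cortical vehicle arrays. Its tissue differences were -1.60 and -1.64 (SE 0.17 each), in vehicle and AMI arrays, and the 2 treatments overlapped within each tissue.

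The D1 receptor gene Drd1a read 0.19, -0.12 and 0.28 in hippocampal AMI and -0.12, 0.03 and -0.08 in hippocampal vehicle arrays, against 1.14, 1.63 and 0.98 in cortical AMI and 1.65, 1.37 and 1.43 in cortical vehicle arrays. Its log2 fold change between tissues was -1.54 (SE 0.16) in vehicle and -1.13 (SE 0.16) in AMI arrays. The D2 receptor gene Drd2 was closer to background in hippocampus, with -0.51, -0.36 and -0.42 in AMI and -0.82, -0.37 and -0.38 in vehicle arrays. In cortex it read -0.01, -0.02 and -0.29 in AMI and 0.60, 0.46 and 0.25 in vehicle arrays, so that cortical AMI arrays lay between the cortical vehicle and all hippocampal arrays. The tissue difference of Drd2 was -0.96 (SE 0.14, adjusted p = 0.000336) in vehicle and -0.32 (SE 0.14, adjusted p = 0.0981) in AMI arrays, where it did not pass the threshold. It passed there with quantile normalization, with neqc and with array weights (adjusted p = 0.0469, 0.0423 and 0.00615). The other receptor, Gpr6, was below detection on all hippocampal arrays and read between -0.82 and -0.54 in cortex. Its cortical mean was 1.04-fold above the hippocampal detection limit in vehicle arrays and 1.05-fold in AMI arrays, each with 2 of 3 cortical arrays detected. The limit was set by the lowest signal of a detected probe on each hippocampal array. Cortical replicate 2 lay below it in both treatments, so these values are not lower bounds of the fold.

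With z normalization the phosphodiesterases differed in how far the tissues were apart. Pde1b, which calcium and calmodulin switch on, read 4.05, 3.72 and 3.99 in hippocampal AMI, 3.85, 3.49 and 3.70 in hippocampal vehicle, 4.45, 4.23 and 4.54 in cortical AMI and 4.86, 4.80 and 4.78 in cortical vehicle arrays. The 4 groups were ordered cortical vehicle, cortical AMI, hippocampal AMI and hippocampal vehicle, and neighbouring groups did not overlap, except the 2 hippocampal ones. The tissue difference of Pde1b was -1.13 (SE 0.12) in vehicle and -0.49 (SE 0.12, adjusted p = 0.0107) in AMI arrays. With arrays centred on their median, which moves the median of all tested probes to 0.21 and 0.22, it was -0.58 (adjusted p = 0.0687) and 0.06 (adjusted p = 0.858), the only tested probe whose direction between tissues turned. Pde10a, the phosphodiesterase that striatal projection neurons hold most of, showed the smallest difference with z normalization, -0.26 (SE 0.12, adjusted p = 0.116) in vehicle and -0.24 (SE 0.12, adjusted p = 0.153) in AMI arrays. It read between -0.53 and -0.19 in hippocampus and between -0.22 and 0.01 in cortex, and passed the threshold in vehicle arrays with quantile normalization (adjusted p = 0.0278) and neqc (adjusted p = 0.0244). Its bead signals were close to background, 75.3 to 130.5 in hippocampus and 112 to 172 in cortex, so its fold changes are understated. In AMI arrays Pde10a gave -0.45 and Pde1b -0.41 with neqc, and -0.18 and 0.06 with median centring, so that their order turned. The difference in size between these probes thus cannot be read as one between the genes.

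Other genes of the striatum were counted from lists, at an adjusted p under 0.05, where 10% of all tested probes were lower in hippocampus and 24.9% differed in either direction in vehicle arrays (11.5% and 26.1% in AMI arrays). Of 22 tested genes enriched in striatum beside the members, 10 were lower and 1 was higher in hippocampus in vehicle arrays, and 9 and 4 in AMI arrays. The genes named in this paragraph were chosen after their values were seen. Scn4b, a sodium channel subunit, differed by -2.75 (SE 0.12), and the calcium sensor Hpca, which hippocampal pyramidal cells also hold, was higher by 0.94 (SE 0.18), all in vehicle arrays. Of 34 tested genes of the cyclic AMP and DARPP-32 relay 8 were lower and 3 higher, beside the 10% and 24.9% of all tested probes given above. Among them were Arpp21, another phosphoprotein of this pathway, at -1.97 (SE 0.19) and the adenylyl cyclase Adcy9 at 1.16 (SE 0.12). Of 11 tested genes of RGS proteins 4 were lower and 2 higher, with Rgs4 at -1.03 (SE 0.14) and Rgs10 at 0.63 (SE 0.14). Of 7 tested neuropeptide genes of other interneurons 2 were lower, Cartpt at -1.65 (SE 0.21) and Vip at -0.72 (SE 0.10). The transcription factor Isl1, which striatal neurons with Drd1a and Tac1 need in development, was detected on 0 of 6 hippocampal and 6 of 6 cortical arrays.

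Of 10 genes of dopamine synthesis, transport and breakdown on the array, 5 were tested in hippocampus and 6 in cortex. Those that are not specific to dopamine neurons, Ddc, Gch1, Pts, Qdpr and Maob, each had a probe detected on 12 of 12 arrays. Of those that mark dopamine neurons, the dopamine transporter Slc6a3 and the vesicular transporter Slc18a2 were detected on 0 of 12 arrays, and tyrosine hydroxylase (Th), the first enzyme of dopamine synthesis, on 0 hippocampal and 3 cortical arrays. The other dopamine receptors were detected in few groups: Drd3 on 0 arrays, Drd4 on 1 cortical array, and Drd5 on 6 of 6 hippocampal and 0 of 6 cortical arrays. The adenosine receptor Adora2a, a defining marker of striatal neurons that carry Drd2, was detected on 1 of 12 arrays, a cortical one, and the kappa opioid receptor Oprk1, the target of dynorphin, on 0 hippocampal and 5 cortical arrays. Of 5 tested receptors beside the members 1 was lower in hippocampus in vehicle arrays, the neurotensin receptor Ntsr1 at -0.60 (SE 0.10), which deep-layer cortical neurons carry. Of 5 tested genes of dopamine synthesis, transport and breakdown 1 differed between tissues in vehicle arrays, Pts, an enzyme of the tetrahydrobiopterin cofactor, which was higher in hippocampus by 0.66 (SE 0.10). These genes were also named after their values were seen.

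After AMI, no member passed the threshold in cortex, and the lowest unadjusted p-values were those of Drd2, Rgs9 and Pde1b, all lower in AMI mice. Of 12 tested probes (9 genes) 0 had an adjusted p under 0.05 with limma, as for all 12944 tested probes (0%), and the adjusted p of the 12 probes was between 0.756 and 0.994. At an unadjusted p under 0.05 there were 3 probes, all lower after AMI, where 1.92% of all tested probes were lower and 6.28% differed in either direction. There was no overlap between AMI and vehicle arrays for 4 probes, 3 of them lower (4.13% of all tested probes) and 1 higher after AMI (12.2% in either direction). Below 0 were 8 of 12 probes, against 42.9% of all tested probes, with a median log2 fold change of -0.19 against 0.02. Among the log2 fold changes of all 12944 tested probes, counted from the lowest, Rgs9 was at rank 12, Drd2 at rank 21 and Pde1b at rank 83. Exact permutation (2-sided) stops at p = 0.1 with 3 arrays on either side. That was the value of Drd2, Rgs9 and Pde1b, and also of Pdyn ILMN_2767871, which was higher after AMI.

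**Figure D3:**
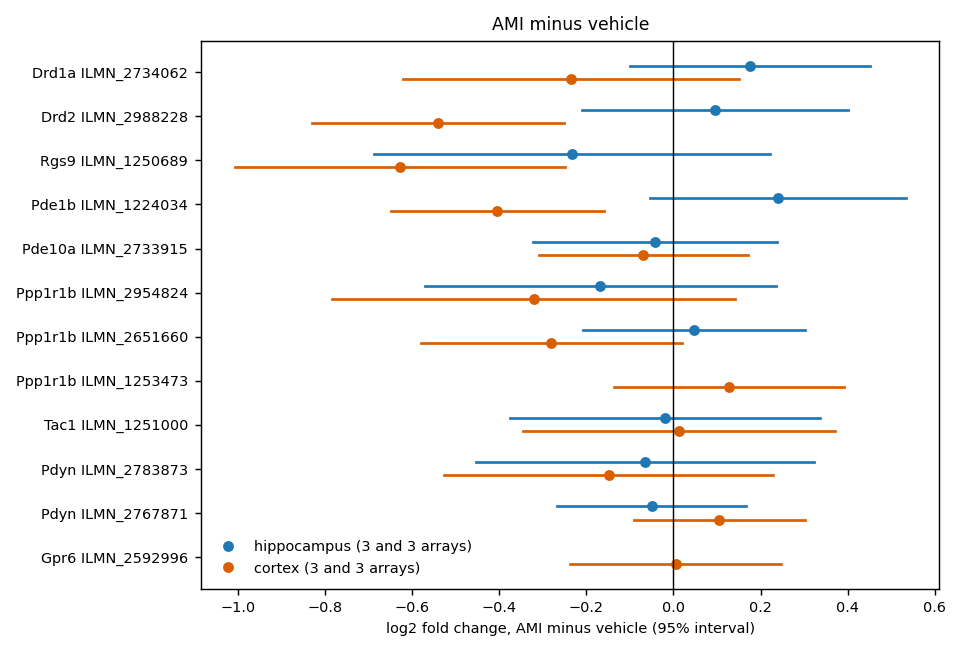
Log2 fold change of AMI minus vehicle (horizontal axis) for the member probes tested in hippocampus (blue) and cortex (orange), with 95% intervals from limma and 3 arrays per group. The cortical intervals of Drd2, Rgs9 and Pde1b lie below 0 before adjustment for multiple testing, and the other 9 cortical and all 10 hippocampal intervals include 0.

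Drd2 in cortex was 0.44 ± 0.18 (SD, n = 3) in vehicle and -0.11 ± 0.16 in AMI arrays, a log2 fold change of -0.54 with a 95% interval from -0.83 to -0.25 (SE 0.13, limma adjusted p = 0.756). Rgs9 was 3.45 ± 0.06 (SD, n = 3) in vehicle and 2.82 ± 0.36 in AMI arrays, a difference of -0.63 with an interval from -1.01 to -0.25 (SE 0.17, limma adjusted p = 0.756). Cortical AMI replicate 2 was the lowest array for Rgs9, and without it the difference was -0.42. Pde1b was 4.81 ± 0.04 (SD, n = 3) in vehicle and 4.41 ± 0.16 in AMI arrays, a difference of -0.40 with an interval from -0.65 to -0.16 (SE 0.11, limma adjusted p = 0.756). In each of the 3 genes the highest AMI array lay below the lowest vehicle array. For Drd2 and Rgs9 this held with z normalization, quantile normalization, neqc and median centring, and for Pde1b with all but median centring, which gave it a difference of -0.25 that no longer had an unadjusted p under 0.05. Leaving out each cortical array in turn, the differences stayed between -0.64 and -0.45 for Drd2, -0.74 and -0.42 for Rgs9, and -0.47 and -0.31 for Pde1b.

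The other cortical probes overlapped between treatments or differed little. Ppp1r1b ILMN_2954824 differed by -0.32 (interval -0.78 to 0.14) and ILMN_2651660 by -0.28 (interval -0.58 to 0.02), the latter without overlap after quantile normalization and neqc. Without AMI replicate 2 the first was -0.07, and ILMN_2651660 ranged from -0.40 without vehicle replicate 3 to -0.16 without vehicle replicate 1. The probe near background, Ppp1r1b ILMN_1253473, differed by 0.13 (interval -0.14 to 0.39), so that the 3 probes did not run one way. Drd1a differed by -0.23 (interval -0.62 to 0.15), with AMI replicate 2 near the top of the 6 arrays and AMI replicate 3 the lowest, and it was -0.42 without AMI replicate 2, at an unadjusted p under 0.05, and -0.10 without AMI replicate 3. Pdyn ILMN_2783873 differed by -0.15 (interval -0.53 to 0.23; 0.05 without AMI replicate 2) and Pde10a by -0.07 (interval -0.31 to 0.17). Tac1 differed by 0.01 (interval -0.34 to 0.37) and Gpr6 by 0.0049 (interval -0.24 to 0.25), and both signs turned with quantile normalization and neqc, that of Gpr6 also with median centring. Pdyn ILMN_2767871 read 0.41, 0.42 and 0.38 in AMI and 0.32, 0.26 and 0.32 in vehicle arrays, a difference of 0.11 without overlap (interval -0.09 to 0.30), and its groups overlapped under the other 3 scalings.

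**Figure D4:**
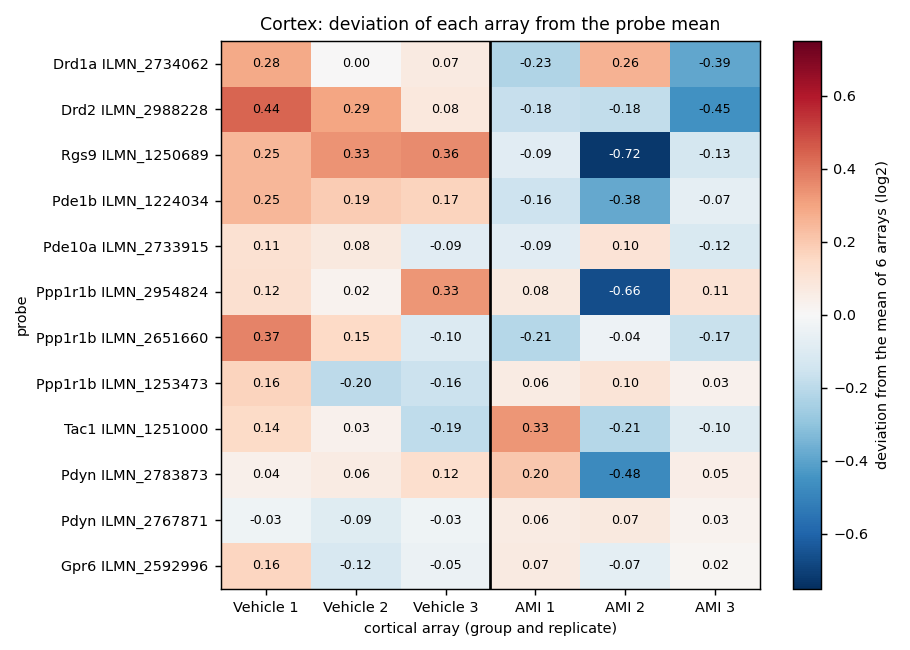
Deviation of each cortical array (columns, vehicle left and AMI right of the line) from the mean of the 6 cortical arrays, in log2 units, for the 12 tested member probes (rows); red is above and blue below the mean. AMI replicate 2 reads -0.72 for Rgs9, -0.66 for Ppp1r1b ILMN_2954824 and -0.48 for Pdyn ILMN_2783873, and vehicle replicate 1 is above 0 for all 9 genes by the probe that stands for each.

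No AMI array was high or low for every member in cortex. Counting 1 probe for each of 9 genes, vehicle replicate 1 was above the mean of the 6 arrays for 9 genes and the highest for 5, whereas AMI replicate 2 was the lowest for 5 and AMI replicate 3 for 3. The mean deviation of the 9 genes was 0.20, 0.10 and 0.09 in vehicle replicates 1 to 3 and -0.01, -0.26 and -0.12 in AMI replicates 1 to 3, so that the ranges of the groups did not overlap. How often list means part between treatments was not tested, and in hippocampus some pathway lists did so too (below). AMI replicate 2 also had the highest median bead signal of the cortical arrays, 102.8 against 80.1 to 88.8. Among all tested probes with a mean level above 2 (3351 probes), it was the lowest array for 30.1%, with a median deviation of -0.05, and among those below 0 (4283 probes) for 6.33%. The part of this in the values of the bright probes of Rgs9, Pde1b, Ppp1r1b and Pdyn was not tested, and without this array the differences of Drd2, Rgs9 and Pde1b were -0.58, -0.42 and -0.31, each at an unadjusted p under 0.05.

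Drd2, Rgs9 and Pde1b were also those whose values followed the mean of the other members most closely over the 6 cortical arrays, with Pearson correlations of 0.77, 0.77 and 0.82, whereas the other members had between 0.05 (Pde10a) and 0.53 (Ppp1r1b). These are descriptions over 6 arrays, AMI and vehicle together, so the correlations include the difference between the treatments. The genes most like the mean pattern of the 9 members in cortex, among 947 probes with an SD of at least 0.3 between arrays, were Tcf7l2 (0.88), Vps33a (0.86), Rps15a (0.86), 6330503K22Rik (0.84), Lmtk3 (0.82), Dmwd (0.82), Stbd1 (0.81), Hsd17b11 (0.80), Rplp1 (0.80) and Slc8a2 (0.79). Tcf7l2, a transcription factor that marks thalamic neurons, read 0.26, 0.18 and 0.04 in cortical AMI and 1.0, 0.40 and 0.44 in cortical vehicle arrays. In hippocampus the correlation of a member with the mean of the others was between -0.84 (Pdyn) and 0.31 (Drd2), and the genes most like the mean pattern were Smtn (0.98), Ccnd3 (0.97), Stra6 (0.96), Klf2 (0.96), Ifitm3 (0.95), Atxn2l (0.95), Tgm2 (0.94), Tnfrsf25 (0.94), Kif1b (0.94) and Slc9a3r2 (0.93), among 747 probes.

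Since striatal genes can move with the tissue that a dissection holds, marker lists were read beside the members. In cortex the mean deviation of 7 detected genes of cortical projection neurons was between -0.07 and 0.09 in AMI and between -0.08 and 0.10 in vehicle arrays, and 0 of 7 had an unadjusted p under 0.05. Thalamic markers (6 genes) ranged from -0.19 to 0.03 in AMI and from -0.24 to 0.42 in vehicle arrays, and 1 of 6, Tcf7l2, was lower at an unadjusted p under 0.05. Markers of the olfactory tubercle and ventral forebrain (3 of 6 genes detected) ranged from -0.10 to 0.06 and from -0.17 to 0.14. Oligodendrocyte markers (10 genes) ranged from -0.15 to 0.03 and from -0.23 to 0.22, and choroid plexus markers (7 genes) from -0.97 to 0.89 and from -0.70 to 0.52. The treatments overlapped in each of these 5 lists. The other striatum-enriched genes (27 detected) ranged from -0.13 to 0.01 in AMI and from -0.06 to 0.12 in vehicle arrays. The part of tissue composition in the cortical values of the members was not tested.

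In the wider pathway, 0 genes passed an adjusted p under 0.05 after AMI in either tissue. The counts at an unadjusted p under 0.05 in cortex stand beside 6.28% of all tested probes in either direction and 1.92% lower after AMI. In cortex 4 of 27 tested striatum-enriched genes had an unadjusted p under 0.05, all lower, and 19 of 27 were below 0 with a median of -0.11. By the rule for naming, these were the retinoid receptor Rxrg (-0.38, SE 0.10), Hpca (-0.33, SE 0.10) and the actinin Actn2 (-0.27, SE 0.10), whose AMI and vehicle arrays did not overlap. Of 37 tested genes of the cyclic AMP and DARPP-32 relay 3 were lower and 1 higher at that p, with Gng7, the G protein gamma subunit through which striatal receptors reach adenylyl cyclase, at -0.51 (SE 0.11, limma adjusted p = 0.756). Gng7 read 3.68, 3.39 and 3.67 in cortical AMI and 4.08, 4.06 and 4.11 in cortical vehicle arrays. Of 12 tested genes of RGS proteins, a list without Rgs9, the naming rule gave Rgs8, lower after AMI (-0.32, SE 0.10). Of 7 tested receptors and of 6 tested genes of dopamine synthesis, transport and breakdown 0 had an unadjusted p under 0.05. Higher in AMI at an unadjusted p under 0.05 were 1 probe each of Phactr1 (ILMN_3062286, 0.58, SE 0.22), a regulator of phosphatase 1, and Pts (ILMN_1217378, 0.42, SE 0.12), while the probes that stand for these genes gave -0.24 (SE 0.11) and 0.09 (SE 0.12).

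In hippocampus the treatments overlapped for all 10 tested probes, where 7.89% of all tested probes did not overlap, and with quantile normalization and neqc those of Pde1b were apart, higher in AMI. No probe had an adjusted p under 0.05 (0% of 13163) or an unadjusted p under 0.05 with limma, where 2.35% of all tested probes had the latter, and every adjusted p was 0.9996. With log2 fold changes above 0 for 4 probes and below 0 for 6 (45.0% of all tested probes were below 0), the median was -0.03 against 0.01 for all tested probes. The largest were Pde1b at 0.24 (interval -0.05 to 0.53) and Rgs9 at -0.23 (interval -0.69 to 0.22), and that of Rgs9 rested on vehicle replicate 3, without which it was 0.02. Drd1a differed by 0.17 (interval -0.10 to 0.45), Ppp1r1b ILMN_2954824 by -0.17 (interval -0.57 to 0.24) and Drd2 by 0.10 (interval -0.21 to 0.40). Pde1b had an unadjusted p under 0.05 with the replicate number as a block (limma adjusted p = 0.586), a pairing that the labels do not state. The same held with quantile normalization, neqc and array weights. It also did so without AMI replicate 2, as did Drd1a, and without vehicle replicate 1. In the same arrays 10 of 10 oligodendrocyte markers were below 0 after AMI, 5 of them at an unadjusted p under 0.05 and 0 at an adjusted one, with mean deviations that overlapped, from -0.42 to -0.07 in AMI and from -0.13 to 0.40 in vehicle arrays. Choroid plexus markers were between -0.70 and -0.33 in AMI and between -0.58 and 2.26 in vehicle arrays, the last value being that of vehicle replicate 3, the array that was also high for Rgs9 and Ppp1r1b ILMN_2954824. Their part in the hippocampal values of the members was not tested. Of the pathway, by the naming rule, the pterin-recycling enzyme Qdpr differed by -0.50 (SE 0.13, limma adjusted p = 0.9996), with 2.83, 2.61 and 2.81 in AMI and 3.46, 3.28 and 3.02 in vehicle arrays. Mean deviations of some hippocampal lists did not overlap between treatments. The other striatum-enriched genes were higher in AMI, 0.01 to 0.07 against -0.06 to -0.01. RGS proteins were also higher, 0.01 to 0.03 against -0.04 to -0.004. Genes of dopamine synthesis, transport and breakdown were lower, -0.18 to 0.008 against 0.01 to 0.14. The members overlapped, with -0.03 to 0.03 in AMI and -0.08 to 0.11 in vehicle arrays.

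The difference between the tissues in the effect of AMI was tested as the tissue by treatment interaction on all 12 arrays. Of 10 tested member probes 0 had an adjusted p under 0.05, as for all 12430 probes (0%), and 2 had an unadjusted p under 0.05, where 3.03% of all probes did. These were Pde1b, with an effect 0.64 higher in hippocampus than in cortex (interval 0.27 to 1.01, SE 0.17), and Drd2, with 0.64 (interval 0.22 to 1.05, SE 0.19), each with an adjusted p of 0.9999. For Rgs9 the interaction was 0.40 (interval -0.22 to 1.01), since its value after AMI was below that of vehicle in both tissues. Leaving out hippocampal vehicle replicate 3, the high array of Rgs9 and Ppp1r1b in that tissue, gave 4 probes with an unadjusted p under 0.05, among them Rgs9 at 0.65. Of all 12430 tested probes, 443 had such a p in that fit, against 377 with all arrays. After adjustment, no difference between the tissues in the effect of AMI was shown for any of these genes.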

How the data were processed

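RNA of hippocampus and cortex was hybridised by the authors to Illumina mouse Ref-8 BeadChips, 1 array per sample. The deposited values are intensities (mean bead signals, neither normalized nor background-subtracted) and detection p-values, exported per the labels with BeadStudio 3.4 (hippocampus) and GenomeStudio 1.1.1 (cortex). The log2 signals were z-normalized per array, as in the study's methods, then scaled back by the average array SD, 1.60. A probe was tested when its detection p did not exceed 0.05 on 3 arrays or more of the tissue, or of both tissues where these were compared. limma 3.58.1 in R 4.3.3 (lmFit, eBayes) was used, with Benjamini-Hochberg adjustment over all tested probes, and was tested on simulated data; tables were made with Python 3.11.15. Precision is limited by the number of arrays. Members and lists were chosen with earlier results of these data known. Every member was named; pathway genes were named where AMI and vehicle arrays were apart at an unadjusted p of 0.05 or less, up to 5 per tissue and direction, and the brightest probe stood for a gene. Alternatives were quantile normalization, median centring, neqc (offset 16), no detection filter, a strict one (0.01 on all 6 arrays), trended robust variances, array weights, a replicate block, 1 fit of both tissues, the methods' t-test, and leaving out each array. Deviations of same-numbered AMI and vehicle arrays correlated at 0.61, 0.30 and 0.29 in hippocampus and at -0.06, 0.33 and 0.33 in cortex. Those of same-numbered arrays of the 2 tissues correlated at -0.35 to 0.09. The labels state no pairing, and the main tests used none, with the replicate block run only as an alternative. Promoters and current gene names came from RefSeq tables.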

Additional observations from a re-analysis of the deposited data

How the results depend on the processing

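The number of member probes with an adjusted p under 0.05 was 0 after AMI in both tissues and in the interaction, 9 between tissues in vehicle and 8 in AMI arrays, and stayed within 1.5 times these counts under every alternative run. The count at an unadjusted p under 0.05 in hippocampus was 1 with quantile normalization, neqc, array weights and the replicate block, and 0 to 2 leaving out each array (2 without AMI replicate 2, 1 without vehicle replicate 1). Of all 13163 tested probes, 581, 626, 1305 and 1063 had such a p in these 4 settings, in that order, against 309 in the main fit. In cortex the count of member probes was 5 with array weights and with the replicate block, and 3 to 4 leaving out each array. Of all 12944 tested probes, 2954 had such a p with array weights and 1125 with the replicate block, against 813 in the main fit. Without cortical vehicle replicate 3 the number was 1960. The counts of members thus rose in settings where those of all probes rose as well. In neither tissue do the labels state that the numbers pair the arrays. The median residual SD with the block was 0.091 in hippocampus, against 0.138 in the main fit, and 0.118 in cortex, against 0.141. In the interaction the count of member probes was 1 with the strict filter (7 probes tested), 4 with array weights, and 2 to 4 leaving out each array. Of all 12430 tested probes, 2491 had such a p with array weights, against 377 in the main fit. The methods' t-test gave 0 member probes in hippocampus and 4 in cortex at an unadjusted p under 0.05 and 0 after Benjamini-Hochberg adjustment. These 4 were Drd2, Rgs9 and Pde1b, lower after AMI, and Pdyn ILMN_2767871, higher by 0.11. Of all tested probes, 483 of 13163 in hippocampus and 827 of 12944 in cortex had such an unadjusted p with that test. The replicate block changed no adjusted call. With array weights the adjusted p of Drd2 and Pde1b in cortex was 0.0519 and 0.0522, and over all alternatives it was between 0.0519 and 0.9998 for Drd2.

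Some signs turned. In hippocampus Tac1 was 0.0252 and Pdyn ILMN_2783873 0.0039 with median centring, and Pde10a 0.0059 and Pdyn ILMN_2767871 0.0120 with array weights. In cortex Tac1 was -0.0104 with quantile normalization and -0.0135 with neqc, Gpr6 -0.0126, -0.0202 and -0.0271 with quantile normalization, median centring and neqc, and Pdyn ILMN_2783873 0.0545 with array weights, which gave -0.12 for it in the interaction. Between tissues Pde1b, -0.49 in AMI arrays and past the threshold, was 0.0588 with median centring. Leaving out each array, the hippocampal value ranged from -0.41 to 0.0241 for Rgs9, -0.12 to 0.14 for Tac1, -0.0375 to 0.14 for Ppp1r1b ILMN_2651660, -0.28 to 0.0518 for ILMN_2954824, -0.14 to 0.0350 for Pde10a, -0.0797 to 0.0074 for Pdyn ILMN_2767871, -0.20 to 0.0769 for ILMN_2783873 and -0.0520 to 0.17 for Drd2. The cortical value ranged from -0.15 to 0.12 for Tac1, -0.0539 to 0.0857 for Gpr6 and -0.29 to 0.0515 for Pdyn ILMN_2783873, and the interaction from -0.14 to 0.13 for Tac1, -0.0665 to 0.10 for Pde10a, -0.12 to 0.23 for Pdyn ILMN_2783873 and -0.10 to 0.37 for Ppp1r1b ILMN_2954824. The cause of these turns was not tested. Signal close to background limits Gpr6, Adcy5, Pde10a, hippocampal Drd2 and Ppp1r1b ILMN_1253473.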
